A study of Mus musculus with 10 samples.

Results

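Of the 21195 m6A peaks that the authors called in mouse neural progenitor cells, 403 (1.90%, exact 95% interval 1.72 to 2.09%) lay outside every RefSeq gene span. A peak was counted as outside when its interval on GRCm38 shared no base with a RefSeq gene of any biotype, and the other 20792 peaks overlapped at least 1 gene. Only positions entered this choice, so reads and enrichment were not used by it. The outside peaks held 299432 of 26633390 input reads in peaks (1.12%) and 757566 of 72308582 immunoprecipitated (IP) reads in peaks (1.05%).

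The cells were hypothalamic neural progenitors grown from Mettl14 f/f mouse embryos at E14.5, with FGF2 and EGF at 20 ng/ml each. A lentivirus carrying EGFP and Cre made the Mettl14 knockout group, and a lentivirus carrying EGFP alone made the control group, so the controls also carried both floxed alleles and had also been infected. The medium was changed 24 h after virus was added, and EGFP-positive cells were sorted after 72 h. Polyadenylated RNA, from 30 µg of total RNA, was broken into pieces of about 80 nt and enriched with an m6A antibody (EpiMark kit) before NEBNext Ultra II RNA libraries were made. There were 4 IP libraries and 1 input library of each genotype. The peak table holds a single input column and a single IP column with no genotype or replicate, and which libraries went into each is not stated. Knockout and control could therefore not be compared, no value below has a replicate error, and the depth of single libraries is unknown. Intervals given for read ratios cover counting error only, and PCR copies are not independent molecules. Because the cells were measured in bulk, fewer cells of a type and less RNA per cell cannot be told apart at any peak. Of the marker genes looked up for the labelled cell type, 7 of 10 progenitor genes (Sox2, Nes, Pax6, Sox9, Notch1, Nr2e1 and Hes1) and 3 of 6 hypothalamus genes (Nkx2-1, Six3 and Tbx3) held a peak. For neurons 2 of 5 did, and for microglia, blood, vessel and mesenchyme 0 of 8 did. A gene can be transcribed and hold no m6A peak.

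N6-methyladenosine is placed on nascent RNA by a complex in which METTL3 is the catalytic subunit and METTL14 holds the RNA. In messenger RNA it is densest around the stop codon and in the 3' untranslated region, and GGACT, written as DNA, is a common form of the sequence that the complex prefers. Reads past an annotated 3' end are well known where transcripts are longer than their gene model, and transcription from a promoter often runs in both directions, with the RNA on the opposite strand usually short-lived. Primary transcripts of microRNAs also reach far beyond the annotated hairpin and are a known METTL3 substrate.

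No genome of this build was used here, so sequence was read only where an outside peak reached one of RefSeq's promoter windows (GRCm38.p6), which run from 250 bases before to 50 bases after a gene start. The stretches below show the promoter-side RNA that these peaks cover, read on the strand of the peak, 5' to 3', with any GGACT in capitals. They were chosen among overlaps of at least 50 bases for the peaks described further on. The first 3 are peaks on the strand of the gene, that is, upstream of its annotated start and in its direction.
Fads2 window, peak on the minus strand, chr19:10101652-10101746: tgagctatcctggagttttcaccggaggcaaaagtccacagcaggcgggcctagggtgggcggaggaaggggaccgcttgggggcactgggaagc
Ogfr window, peak on the plus strand, chr2:180589320-180589394: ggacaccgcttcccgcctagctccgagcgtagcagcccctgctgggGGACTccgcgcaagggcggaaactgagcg
Set window, peak on the plus strand, chr2:30061746-30061918: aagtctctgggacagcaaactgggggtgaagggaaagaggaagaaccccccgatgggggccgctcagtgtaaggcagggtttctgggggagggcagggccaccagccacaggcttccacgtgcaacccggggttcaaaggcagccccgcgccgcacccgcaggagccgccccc
The next 4 are peaks on the strand opposite to the gene, pointing away from it. The last of them, in the Xpnpep3 window, carries the identifier of St13 and lies 204 bases before the start of St13.
Sdhaf1 window, peak on the plus strand, chr7:30322565-30322625: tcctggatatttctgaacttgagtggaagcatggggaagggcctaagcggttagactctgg
Tbc1d9 window, peak on the minus strand, chr8:83165206-83165280: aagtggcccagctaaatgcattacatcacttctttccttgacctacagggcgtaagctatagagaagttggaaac
Nfe2l2 window, peak on the plus strand, chr2:75704820-75704913: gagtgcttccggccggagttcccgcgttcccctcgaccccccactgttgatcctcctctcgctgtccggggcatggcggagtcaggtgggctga
Xpnpep3 window, peak on the minus strand, chr15:81399898-81399972: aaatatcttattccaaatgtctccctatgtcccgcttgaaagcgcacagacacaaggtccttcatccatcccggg
Of these 7 stretches, only the one before Ogfr holds GGACT. The match is a description of letters and not a site. The second set is the RefSeq mature microRNAs whose hairpins lie closest behind a strongly covered outside peak on the same strand, at chr16:77598228-77598527. Capitals mark the seed, bases 2 to 8.
mmu-miR-99a-5p: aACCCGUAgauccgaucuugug
mmu-miR-99a-3p: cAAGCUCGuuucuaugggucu
mmu-let-7c-5p: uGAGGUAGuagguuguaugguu
mmu-let-7c-1-3p: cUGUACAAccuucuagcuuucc
The 4 seeds are all different, so the arms fall into no shared seed group.

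The outside peaks were short and shallow compared with all peaks, while their IP enrichment was similar. Their median span was 275 bases, against 891 bases over all peaks. Of the 403, 85 (21.1%) spanned at most 100 bases, compared with 9.50% of all peaks, and 50 (12.4%) had the minimum span of 75 bases, compared with 5.13%. At the long end, 15 (3.72%) were over 10000 bases, where 2757 of all 21195 peaks were.

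**Figure D1:**
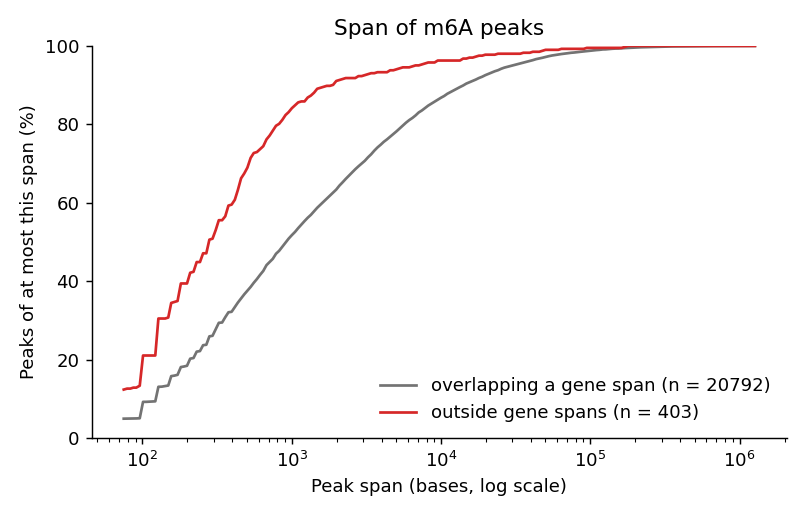
Cumulative share of peaks (vertical axis, %) by span (horizontal axis, bases, log scale) for the 403 peaks outside gene spans and the 20792 peaks overlapping one. The red line lies above the grey line over most of the range: 84.1% of the outside peaks span at most 1000 bases.

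The median outside peak had 173 input reads and 383 IP reads, where the median over all peaks was 466 and 864. There were fewer than 50 input reads in 100 of them (24.8%, against 11.8% of all peaks) and fewer than 10 in 26 (6.45%, against 1.65%). None had 0 input reads. IP reads outnumbered input reads in 367 of 403 outside peaks (91.1%), near the 88.6% of all peaks. The authors' deposited table gives each peak a log2 fold change, taken here as IP over input and called its enrichment below. Where a pair of read numbers is given for a peak, the first is input and the second IP, and a value beside it is the enrichment. Enrichment was above 1 in 401 of 403 outside peaks, again near the background of 99.2%, and above 3 in 232 (57.6%), where 52.1% of all peaks were. Its median was 3.22 outside and 3.06 over all peaks. Among peaks of at most 1000 bases the medians were 3.17 outside (339 peaks) and 2.84 inside (10761 peaks). The authors' fold change is not the plain ratio of the deposited reads. It exceeded the log2 ratio by a median of 1.81 in the outside peaks (5th to 95th percentile 1.04 to 2.75) and of 1.88 in all peaks, so a peak with fewer IP than input reads can still have a positive fold change. Across the 403 peaks the fold change was lower where input reads were higher (Spearman's rho -0.38), while over all 21195 peaks rho was -0.08. Both describe peaks of the same pooled libraries, and the fold change is taken to have the input in its denominator.

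**Figure D2:**
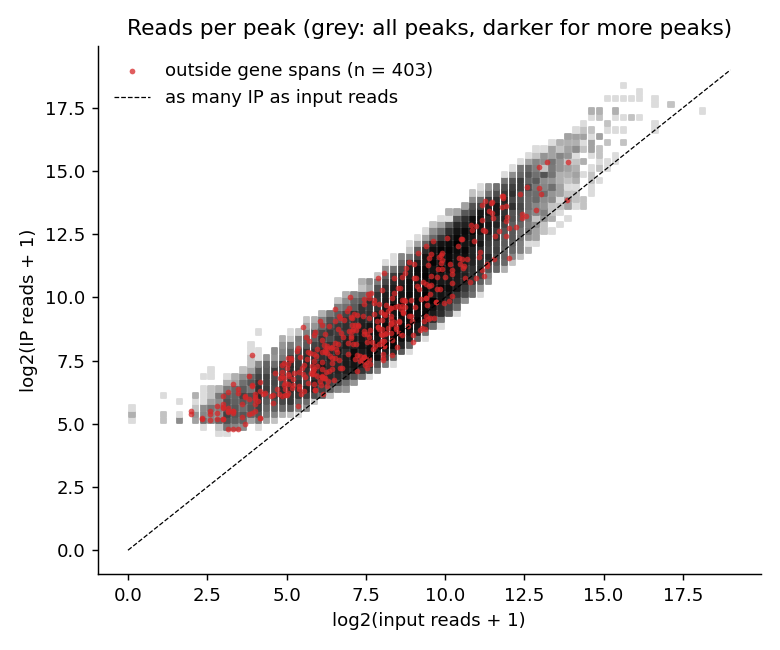
Reads per peak in the input (horizontal axis) and the IP (vertical axis), both as log2(reads + 1). Red points are the 403 outside peaks and grey squares all 21195 peaks in bins. The red points lie along the grey band, reaching up to 15049 input reads, and 367 of them lie above the dashed line of equal reads.

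The strands were used about equally, with 207 outside peaks (51.4%, exact 95% interval 46.4 to 56.3%) on the plus strand and 50.7% of all peaks. By chromosome, the outside share of peaks was highest among the autosomes on chromosomes 8 (33 of 1141, 2.89%) and 7 (43 of 1488, 2.89%) and lowest on chromosome 4 (14 of 1242, 1.13%). The Y chromosome had 1 outside peak of 6, behind Kdm5d, a histone H3K4 demethylase. The mitochondrial genome had none of 7.

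Most outside peaks lay close to a gene. The median distance to the nearest gene span of any biotype was 819 bases, with 72 peaks within 100 bases, 220 within 1000 bases, 46 beyond 10000 bases and 8 beyond 50000 bases. The nearest gene was protein-coding for 300 peaks, a long noncoding RNA for 58 and a pseudogene for 26. The distance to the nearest gene 3' end on the same chromosome had a median of 3822 bases and quartiles of 979.5 and 17518 bases. Within 1000 bases of such an end lay 103 peaks (25.6%), within 5000 bases 217 (53.8%), and beyond 100000 bases 12.

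A peak that overlaps no gene and lies close to a gene's 3' end must lie past that end unless the gene is shorter than the distance, so the position past the end, and part of its fall with distance below, follow from the choice of the peaks. The strand of a peak did not enter that choice. Whether it came from the reads or from the gene model that the authors assigned to the peak was not tested. The shares on the same strand below are therefore a description only. The nearest 3' end was behind the peak on the strand of the peak in 218 of 403 peaks (54.1%). By distance, this was so for 88 of the 103 peaks within 1000 bases (85.4%), 78 of 114 from 1000 to 5000 bases (68.4%), 34 of 92 from 5000 to 20000 bases (37.0%) and 18 of 94 farther away (19.1%). The same bins had median enrichments of 3.03, 3.23, 3.33 and 3.20. Enrichment thus showed little relation to the distance from a 3' end (Spearman's rho 0.06 over 403 peaks), while for distance from any gene span rho was 0.25.

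**Figure D3:**
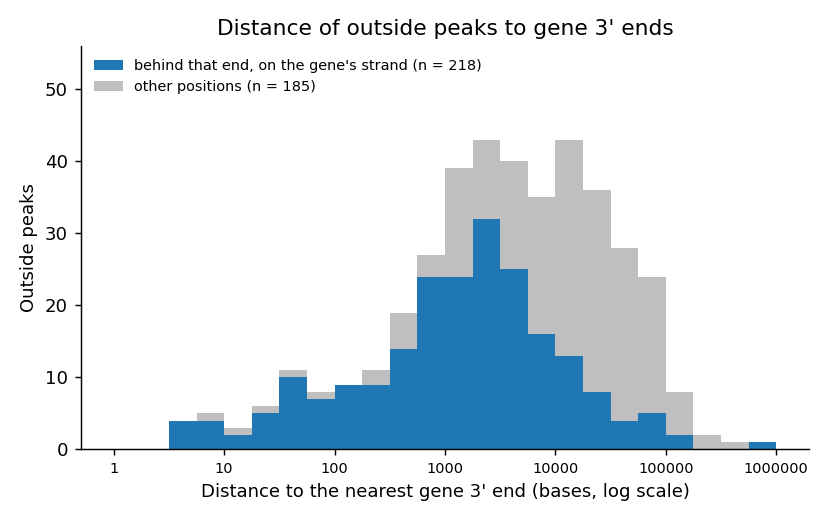
Number of outside peaks (vertical axis) by distance to the nearest gene 3' end (horizontal axis, bases, log scale). Blue marks the 218 peaks that lie past that end on the gene's strand, which make up most of the bars below 1000 bases, and grey the other 185.

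Grouped by the nearest gene span, the peaks fell into 5 positions. Behind the gene's 3' end on its strand lay 173 peaks (42.9%), at a median of 1032 bases, and they held 44.5% of the outside IP reads. Before the gene's 5' start and on the opposite strand, the arrangement of divergent transcription, lay 93 (23.1%) at a median of 459 bases. Before the 5' start on the same strand lay 50 (12.4%) at a median of 234 bases. Behind the 3' end on the opposite strand lay 33 (8.19%), and for 54 (13.4%) the strand of the nearest gene was not known. The median enrichments were 3.33 behind the 3' end on the same strand, 3.23 before the start on the opposite strand and 2.84 before the start on the same strand. Only the last of these was under the all-peak median of 3.06. The ranges of all 5 positions overlapped widely.

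**Figure D4:**
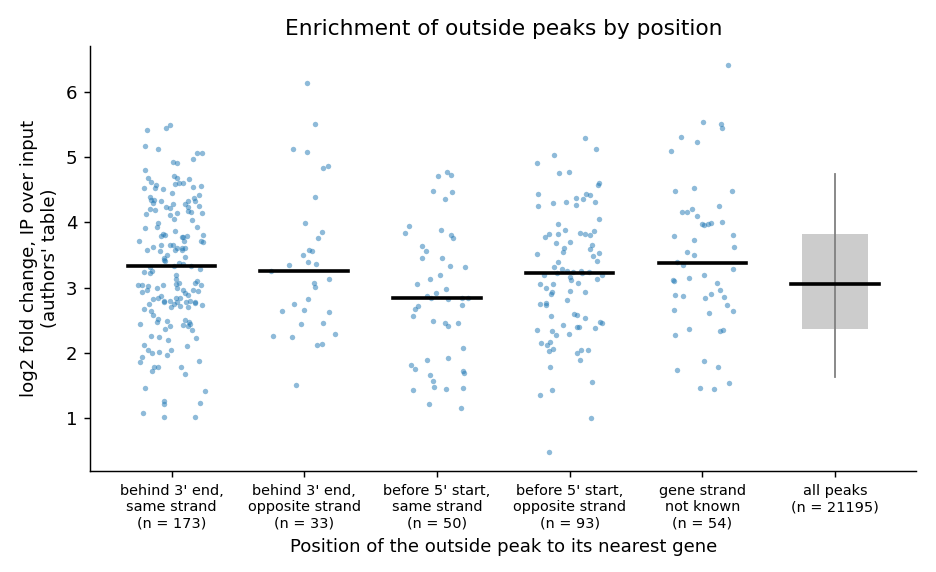
The authors' log2 fold change of IP over input (vertical axis) for the outside peaks by position to their nearest gene, 1 point a peak with the median as a black bar. The box at the right gives the median, quartiles and 5th to 95th percentile of all 21195 peaks. The points of all positions overlap, and the lowest median, 2.84, belongs to peaks before the 5' start on the same strand.

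The authors' table also gives each peak 1 or more Ensembl gene identifiers, and these tell which gene model a peak was assigned to. An identifier of 215 outside peaks (53.3%) was also carried by a peak inside a gene, and the identifiers of the other 188 occurred only outside. The first kind sat mostly behind a 3' end on the same strand (120 of 215, 55.8%). The second kind sat most often before a 5' start on the opposite strand (74 of 188, 39.4%) and held 53 of the peaks behind a 3' end on the same strand. Of the 215, 154 could be tied to 1 of 126 RefSeq genes through inside peaks of the same identifier. Such a peak overlapped that gene alone or, where all overlapped several genes, the gene was the only coding gene they shared. Where the gene's strand was known, the inside peaks had to lie on it. Of the 154, 123 lay behind the 3' end of their own gene, at a median of 1276 bases, and 31 before its 5' start, at a median of 204 bases.

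Among the 123 peaks past the 3' end of their own gene, the median enrichment was close to the 3.06 of all peaks. Their median enrichment was 3.22, and 69 of 123 were above 3. Against the nearest inside peak of the same identifier, the outside peak was higher in 57 of 123 pairs, with a median difference of -0.08, and it was the strongest peak of its identifier in 45.

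Egfr, the receptor for epidermal growth factor, which was in the culture medium, had a pair of outside peaks in this position. The peak at chr11:16915783-16916207, 1876 bases past the annotated end, held 746 input reads and 3328 IP reads, a ratio of 4.46 (4.12 to 4.84), and an enrichment of 5.13. The peak 3551 bases past the end had 319 input and 212 IP reads and an enrichment of 2.24, the same as the only inside peak of the gene, 2.24 with 258 and 304 reads. Of the 3 Egfr peaks, the strongest was therefore outside the annotated span. Calr encodes calreticulin, a calcium-binding chaperone of the endoplasmic reticulum. Its outside peak, 75 bases wide and 64 bases past the end, had 671 input and 4205 IP reads and an enrichment of 5.07, and its inside peak had 2.41. Ccnt2 encodes cyclin T2, a subunit of the elongation factor P-TEFb. It had 2306 input and 8573 IP reads at 680 bases past its end, with an enrichment of 4.81 outside and 2.65 inside. Fbxl18, an F-box gene, showed 4.34 at 4644 bases (571 and 3493 reads) against 2.09 inside. In these 4 genes the outside peak had the higher enrichment, and they were picked for that after their values were seen.

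Ulbp1, a ligand of the NKG2D receptor of natural killer cells, had the most IP reads of any outside peak. At chr10:7444612-7444711, 162 bases past the gene's end, 9574 input and 41793 IP reads gave a ratio of 4.37 (4.27 to 4.46) and an enrichment of 4.14. Its inside peak had 128 and 231 reads and 2.77, so nearly all peak reads of that identifier were outside the span. Maf, a basic leucine zipper transcription factor, had no strand in the tables used here and was placed by the strand of its peaks. It had a wide outside peak 1725 bases past its annotated end (17637 bases, 623 input and 447 IP reads, enrichment 1.46) and a narrow one 19937 bases past it. The narrow one, at chr8:115682942-115683316, had 7966 input and 20735 IP reads and 4.16, and the nearest inside peak of Maf had 4.90. At Mmp16, a membrane-type matrix metalloproteinase, the outside peak 1375 bases past the end had 1439 and 5100 reads and 4.69, against 3.42 inside. At Taf12, a subunit of TFIID, the values were 1058 and 5244 reads and 3.93 at 850 bases, against 2.64. Nlgn3, a synaptic adhesion protein gene, went the other way for read number: 200 and 1170 reads outside (4.24, at 165 bases) against 2023 and 13183 inside (4.20). Fzd4, a Wnt receptor gene, had 76 and 90 reads outside and 2.41, well under the 4.55 of its inside peak. The order of outside and inside peaks thus varied from gene to gene.

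**Figure D5:**
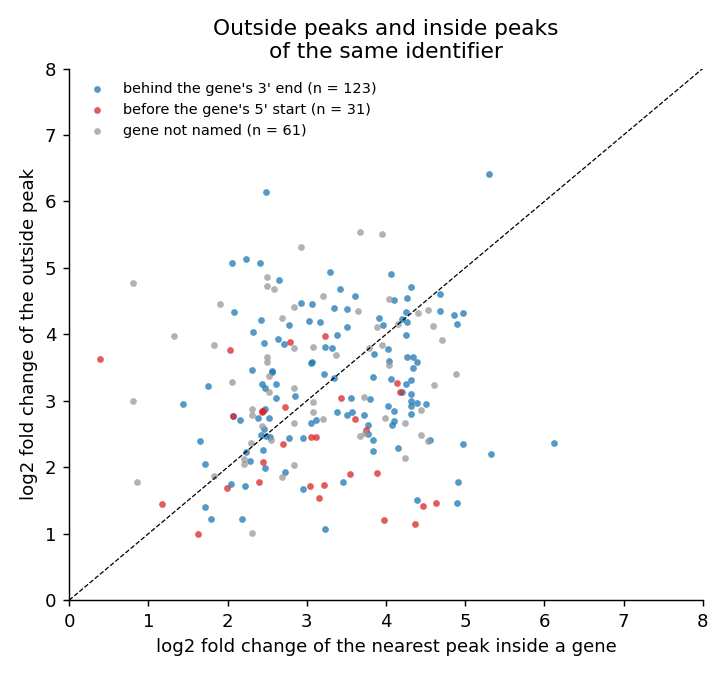
The authors' log2 fold change of each of the 215 outside peaks that share an identifier with an inside peak (vertical axis) against that of the nearest such inside peak (horizontal axis), with a dashed line of equal values. Blue points, past the 3' end of the named gene, fall on both sides (57 of 123 above). Red points, before its 5' start, fall mostly below (10 of 31 above).

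Several outside peaks can belong to 1 identifier. Of 382 identifiers on outside peaks, 319 had 1, 53 had 2 and 10 had 3 or more. Gm10033, a predicted gene, had 5 in a row from 469 to 1719 bases past its end, with 65, 172, 128, 343 and 2898 IP reads in order of distance. Enrichment was 4.71 in the nearest and between 2.93 and 3.31 in the others. The reads were thus concentrated in the peak farthest from the span, while enrichment was highest in the nearest, shallowest one. The 3 peaks past 8030451A03Rik had 54, 10280 and 356 IP reads at 286, 461 and 1086 bases, with 4.55, 3.66 and 4.18. For Tma16, a ribosome-associated factor, 3 peaks at chr8:66474143-66474467, chr8:66474518-66475342 and chr8:66475493-66475717 had enrichments of 1.51, 3.58 and 2.97, and its nearest inside peak had 4.39.

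The 31 peaks before the 5' start of their own gene had lower enrichments, given as a description with no test. Their median enrichment was 2.45, and 7 of 31 were above 3. They were higher than the nearest inside peak of their identifier in 10 of 31, with a median difference of -0.61. Fads2, a fatty acid desaturase, is an example: 601 input and 991 IP reads 149 bases before the start gave a ratio of 1.65 (1.49 to 1.83) and an enrichment of 1.42, against 4.47 inside. Set, a histone chaperone and inhibitor of protein phosphatase 2A, had 1108 and 919 reads over 4541 bases and 1.46, against 4.63. Cdc14b, a phosphatase, had 401 and 362 reads and 1.15, against 4.37. Sirt1, a deacetylase, had 672 and 610 reads and 1.44, and here the inside peak was as low, 1.17. Ogfr, the opioid growth factor receptor, had 403 and 941 reads 13 bases before its start and 1.69, against 2.00. St13, an HSP70-interacting protein, had 4106 and 3054 reads and 0.99, against 1.63. The same peak reaches the Xpnpep3 window on the strand opposite to Xpnpep3.

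Other peaks before a start had higher values, above or near the all-peak median. Plxna2, a semaphorin co-receptor, had 1129 input and 2527 IP reads 974 bases before its start and an enrichment of 3.63, while its nearest inside peak had 0.38. Sf3b5, a splicing factor subunit, had 173 and 847 reads and 3.77 against 2.04. Adgrl2, which encodes the adhesion receptor latrophilin 2, had 3597 and 16314 reads only 5 bases before its start, a ratio of 4.54 (4.37 to 4.70), but an enrichment of 2.91, close to the 2.73 of its nearest inside peak. Ebf1, an early B-cell factor that is also a neuronal transcription factor, had 1020 and 1816 reads and 3.05 against 3.44.

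Seen from the promoters, 45 outside peaks (11.2%) reached into 47 RefSeq promoter windows. The 20 on the gene's strand had a median enrichment of 1.86, and 3 of 20 were above 3. The 27 on the opposite strand had a median of 2.81, and 11 of 27 were above 3. The windows reached had a median GC content of 64.3%, compared with 52.7% for all 32851 windows. GGACT, searched as these 5 letters on the strand of the peak, occurred in 15 of the 47 windows (31.9%). The whole window was searched, including bases that the peak does not cover. It occurred in 26.1% of all windows on the gene's strand and in 26.0% on the other strand. A peak can reach the windows of a divergent gene pair: the peak at chr15:100615349-100615523 reached both that of Dazap2 on its own strand and that of C330013E15Rik on the other (1401 and 3028 reads, 1.80).

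Among the 93 peaks before a start on the opposite strand, the deepest was next to Pheta1, a PH domain gene of endosomal trafficking. At chr5:121848492-121848741, 256 bases from the gene, it held 15049 input reads and 41756 IP reads, a ratio of 2.77 (2.72 to 2.83) and an enrichment of 3.19. Next to Cgrrf1, a RING finger gene, a peak 1301 bases away had 6162 and 21265 reads and 3.82. Next to Tada1, a subunit of the SAGA complex, a peak 165 bases away had 5280 and 17279 reads and 3.23. All 3 carry identifiers found on no inside peak, so no RefSeq gene could be given to the RNA itself. Upstream of Nfe2l2, the oxidative stress factor NRF2, the peak at chr2:75704820-75705144 had 3332 and 6311 reads and 1.55, and its identifier is that of the long noncoding RNA E030042O20Rik. Next to Tbc1d9, a TBC domain gene, the peak at chr8:83165206-83165280 had 1921 and 4824 reads and 3.25.

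Enrichment on the opposite strand ranged widely. The highest in a promoter window was at Tmem33, an endoplasmic reticulum membrane protein gene (92 and 532 reads, enrichment 4.76), followed by 4.58 at Borcs6, but on 7 and 68 reads only. Rfc4, a subunit of the clamp loader of DNA replication, had 269 and 1994 reads and 4.37. The lowest of all 403 outside peaks was at Nek2, a centrosomal kinase of mitosis, with 502 input and 298 IP reads, a ratio of 0.59 (0.51 to 0.69) and an enrichment of 0.47.

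On 20 outside peaks another called peak overlapped on the opposite strand, which the deposited strand column keeps apart. At Sdhaf1, an assembly factor of succinate dehydrogenase, the plus-strand peak had 2443 input and 14494 IP reads (enrichment 4.25). The minus-strand peak over nearly the same interval had 232 and 541 (2.84) and carries the identifier of Sdhaf1, which lies on that strand. The pair at C1ql3, a synaptic complement C1q-like gene, had 242 and 855 reads on the gene's strand (2.73) and 51 and 308 on the other (3.51). At Cracd the gene's strand had 97 and 434 reads (3.88) and the opposite strand 1203 and 1953 (2.34). At Ctdspl, a small phosphatase gene, the plus strand had 679 and 1010 reads (1.47) and the minus strand 153 and 481 (3.29). In the last 3 pairs the strand with fewer reads had the higher fold change, and at Sdhaf1 the strand with more reads did. Whether the library kit keeps strand is among the facts not given in the sources used here, so the part of reads from the other strand in these values was not tested.

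Near microRNA hairpins, 9 outside peaks lay within 10000 bases, 5 of them on the hairpin's strand. The deepest, at chr16:77598228-77598527, lay 409 bases upstream of Mir99a and 1130 bases upstream of Mirlet7c-1, whose mature sequences are printed above. It held 8411 input reads and 17542 IP reads, a ratio of 2.09 (2.03 to 2.14) and an enrichment of 3.81. A second peak on that strand, 3733 bases upstream of Mir99a, had 57 and 95 reads and 2.83. Downstream of Mir3061, a peak of 740 bases had 3011 and 2968 reads and 1.78, and 509 bases upstream of Mir707 a peak had 365 and 806 reads and 2.35. By identifier, the former was tied to the coding gene Ppp2ca, 4290 bases past its end. The latter was tied to Akt1s1, 34 bases before its start. The remaining peak on a hairpin's strand, 2796 bases downstream of Gm51296, had 196 and 162 reads and 1.08. It was tied to Pfdn5, 15 bases past the end of that gene. On the opposite strand, 24 bases from Mir484, a peak had 747 and 1436 reads and 2.75. The other opposite-strand peaks had higher enrichments. One 1361 bases from Mir6363 had 195 and 1006 reads and 4.68. Near Mir8113, peaks at 7361 bases (13 and 118 reads) and 7586 bases (48 and 347 reads) had 4.61 and 4.35. Of the 5 peaks on a hairpin's strand, the one before Mir99a and Mirlet7c-1 thus had both the most reads and the highest enrichment.

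The other outside peaks with the most IP reads were next to coding genes. The peak 14 bases from Pfdn6, a prefoldin subunit, at chr17:33938821-33938895 had 8064 input and 36752 IP reads and an enrichment of 3.78. The one 2651 bases from Rgma, which encodes repulsive guidance molecule A, had 3545 and 16522 reads and 3.93. The one 4 bases from Yju2, a splicing factor gene, had 3653 and 15700 reads and 3.62. Each of the 10 deepest peaks had an enrichment between 2.91 and 4.16, none of them among the 10 highest.

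The most enriched peaks with at least 50 input reads were mostly narrow. Near Bmp5, a bone morphogenetic protein gene, the peak at chr9:75907365-75907489 had 237 and 1756 reads, a ratio of 7.41 (6.47 to 8.52) and an enrichment of 5.51. It lay 7049 bases from Bmp5 on the opposite strand, and its identifier was tied to no gene. Next to Abcd3, a peroxisomal transporter, the peak 31 bases from the span had 120 and 699 reads and 5.50. Near Cacng8, an auxiliary subunit of AMPA receptors, the peak at chr7:3389810-3389884 had 91 and 735 reads and 5.30. It lay 4158 bases before Cacng8 on the opposite strand, with an identifier found on no inside peak. Next to it, at chr7:3389310-3389734, lay a second peak of 65 and 533 reads and 4.91. Peaks near Lactb2 (80 and 469 reads) and Fam162a (436 and 2281 reads) had 5.24 and 5.18. Whatever the reads, the highest value was 6.42 at 2810403D21Rik on the X chromosome, with 14 input and 210 IP reads, a ratio of 15.0 (8.74 to 27.9). The next, 6.15, rested on 3 input and 45 IP reads, for a ratio of 15.0 with an interval of 4.82 to 75.5. That peak was tied to Gm2115, 1654 bases past its end. Its nearest span was Fah, 1628 bases away and on the opposite strand. At the low end, after Nek2, came the peaks at St13 (0.99), H2ac18 (1.01 with 2542 and 2414 reads), Cenpb (1.01 with 589 and 420) and Pfdn5 (1.08 with 196 and 162), all within 318 bases of a gene span.

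Far from genes, 4 peaks lay more than 100000 bases from any span. The farthest, chr13:4916064-4916163, was 170527 bases away and had 24 and 129 reads and an enrichment of 5.08. The one at chr1:98764841-98765554, 157451 bases away, had 100 and 614 reads, a ratio of 6.14 (4.96 to 7.66) and 4.54. The one at chr14:8800000-8800324, 112091 bases away, had 104 and 383 reads and 3.29. The last was very wide, chr13:82164966-82258884, with 43 and 71 reads and 3.15. All 4 carry an Ensembl gene identifier that occurs on no inside peak, so the authors' table assigns them to a gene model. Some distant peaks were deep: chr10:93939165-93939289, 22233 bases from Vezt, had 1791 and 7473 reads and 4.16, and chr2:92095031-92095155, 49779 bases from a gene, had 1354 and 4145 reads and 3.40. Both carry identifiers also found inside a gene.

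The widest outside interval, 176890 bases near Pou3f4, a POU-domain neural transcription factor, had only 32 and 94 reads and an enrichment of 4.44. The second, 167896 bases at chr3:134462087-134629982, had 217 and 889 reads and 4.78. The deposited intervals are single blocks, so a wide one can span a stretch where no read lies, and its reads cannot be placed within it.

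Symbols of the neural transcription factor list were the nearest or the assigned gene of 8 outside peaks (1.99%). The list has 233 genes, 1.06% of coding genes. The former is a share of peaks next to genes of any biotype and the latter a share of coding genes. They are therefore not directly comparable, and the difference between these shares was not tested. Among the 8 was the noncoding Six3os1, which shares only its symbol with the list. The median enrichment of the 8 peaks was 3.20, close to the 3.22 of all outside peaks. Tcf4, a basic helix-loop-helix factor, had 3909 input and 8236 IP reads 56 bases past its end and 3.43, against 2.56 in its nearest inside peak. Nkx6-1, a homeobox factor, had 77 and 220 reads 171 bases past its end and 3.08, against 2.86. Six3os1, the antisense RNA of the forebrain gene Six3, had 10 and 74 reads 782 bases past its end and 4.46. The other 5 peaks had a listed gene as the nearest span, at different distances. These genes were Zfhx2 (2.63, 3981 bases away), Foxj2 (3.33, 7365 bases), Pou3f4 (4.44, 2104 bases), Olig1 (2.12, 30662 bases) and Olig2 (2.27, 2626 bases). Olig1 and Olig2 are oligodendrocyte lineage factors. None of these 5 peaks lay past the 3' end of its nearest gene on the gene's own strand. The second list, of neural RNA-binding proteins, has only 28 genes (0.128% of coding genes), and 0 outside peaks were assigned to or nearest to one.

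At the edge of the rule, median enrichments were alike on both sides. The 12 outside peaks within 10 bases of a gene span had a median enrichment of 2.72. The 13 inside peaks of at most 10000 bases that overlapped a gene by no more than 10 bases also had a median of 2.72. The closest outside peaks, 4 bases from a span, were at Kdm5c, a histone demethylase (376 and 386 reads, 1.73), Yju2 and Gm4890 (41 and 131 reads, 3.61). Just inside, a peak overlapping Pik3r1, a regulatory subunit of PI3 kinase, by 2 bases had 177 and 145 reads and 2.49. One overlapping Adrb1, an adrenergic receptor gene, by 2 bases had 48 and 89 reads and 2.63. The other peaks overlapping a gene by 2 bases ranged from 2.25 at Rnf40 to 4.19 at 1700055D18Rik. Those at Mir345, Tbrg1 and 1110015O18Rik had 3.30, 3.60 and 3.90. In all, 61 inside peaks of at most 10000 bases overlapped a gene by less than 10% of their length, with a median of 2.78.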

How the data were processed

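Only the peak table was used. Its reads (counts per peak, 1 pooled input and 1 pooled IP column), log2 fold changes, p-values, adjusted p-values, scores and block lengths are as the authors deposited them, and a BED file repeats the 21195 peaks. In each of them the score is the negative log2 of its adjusted p-value. Per the submitters' processing notes, the build was GRCm38.p6 and the tools included STAR 2.5.2a, Trimmomatic 0.32 and bcl2fastq 2.17.1.14. Peak caller, read counter, normalization and pooling: not given in the sources used here.

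Starts were counted from 0: start plus 1 equalled a RefSeq gene start in 655 peaks, start itself in 58. Overlap meant 1 base or more with a RefSeq gene span (GRCm38.p6, 49993 genes). Gene strands came from RefSeq promoter (27024) or hairpin (1005) tables, otherwise from reads of peaks inside the gene with at least 10 times more IP reads on 1 strand (1765). This last rule gave the table's strand in 6906 of 6984 genes, and the other 20199 genes entered no distance to a 3' end. A gene was tied to an identifier only within 20000 bases of the peak, which left 10 peaks unnamed. Tied genes were placed by the strand of the peak. It was the gene's strand in all 150 ties where one was known. This is no check of the placement, because a gene was left untied when its inside peaks were not on its known strand. The other 4 ties, 2 of them to Maf, had no other strand. Peaks were named by rank of reads, fold change, distance and span, by promoter windows, and by symbol lists; members, lists and rules were chosen with earlier results of these data known, and other named peaks were picked after their values were seen. Log2 ratios used a pseudocount of 0.5, and ratio intervals are exact (Clopper-Pearson, 95%). No test was run over peaks, which are not replicates. Python 3.11.15, pandas 2.3.3 and scipy 1.17.1 were used, and the position code was tested on simulated data.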

Additional observations from a re-analysis of the deposited data

How the results depend on the processing

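Of 24 alternatives, 17 left a value close to that reported. The number of outside peaks, 403, depended on which genes count: it was 183 with gene spans widened by 1000 bases, 67 with spans widened by 5000 bases, and 1345 with protein-coding spans only. The median distance to a 3' end, 3822 bases, became 7883 with protein-coding genes only, 6285 with genes on the strand of the peak only, and 5526.5 with strands from the reference tables only, an alternative chosen after seeing the data. The median log2 fold change, 3.22, was 3.57 for peaks at least 5000 bases from a span. The cause was not tested beyond what fewer genes, fewer strands or fewer peaks change by construction. No paired analysis was possible because the table has no column per library, and for the same reason knockout against control and leaving out each replicate were not run. Peaks under 10 input reads (26) have wide ratio intervals, and depth per library is unknown.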
